A study of Mus musculus with 12 samples.

Results

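The EKO-labelled RNA sequencing libraries of the mouse dendritic cell (DC) line Sp37A3 were compared by replicate number, replicate 1 against replicates 2 and 3. These were 6 of the 12 libraries of the series: 2 libraries of replicate 1 (1 unpulsed, 1 OVA-pulsed) and 4 of replicates 2 and 3 (2 unpulsed, 2 OVA-pulsed). Sp37A3 is a cell line that was derived from mouse spleen and is kept in GM-CSF and M-CSF, growth factors for DCs and macrophages. CtrV cells carried the empty CRISPR-Cas9 vector, and EKO cells carried a guide against Siglece, the gene of the inhibitory receptor Siglec-E. By the study's methods, the EKO line was a pool of several edited clones, picked for little or no Siglec-E protein. All 12 libraries came from cells stimulated with LPS, the bacterial ligand of Toll-like receptor 4 (24 h in the labels), either without antigen or after pulsing with the protein ovalbumin (OVA). The labels number 3 replicates in each of the 4 groups and do not say whether cultures with the same number were handled together. The labels also give no date or run, so replicate number and any difference in handling cannot be told apart.

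The split was chosen by measured values: replicate 1 lay apart from replicates 2 and 3 in earlier results over all expressed genes of these same libraries. Values across the EKO-labelled libraries are therefore given as a description, without a test. The same replicate numbers in the 6 CtrV libraries did not enter that choice, and there the difference was tested. Expression is given as CPM, the counts of a gene relative to its library's total, scaled with trimmed mean (TMM) factors. Fold changes are log2 fold changes of replicate 1 against replicates 2 and 3, with pulsing as a covariate.

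DCs that meet LPS mature. They raise MHC and co-stimulatory molecules, the receptor CCR7 that guides them to lymph nodes, the actin bundler fascin and the T cell-attracting chemokines CCL22 and CCL17, and genes of this state are listed here as mature migratory DC genes. LPS also drives type I interferon, which acts back on the cells and induces interferon-stimulated genes through elements in their promoters. Cell lines keep dividing, while terminally mature DCs divide little.

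Siglece (ENSMUSG00000030474, chromosome 7 from 43651070 to 43660161 on the minus strand, GRCm38) had no lower mRNA level in EKO-labelled cells than in CtrV cells. Its level was 166, 222 and 235 CPM in unpulsed EKO-labelled replicates 1, 2 and 3, and 174, 208 and 202 CPM in the OVA-pulsed ones, against 150 to 163 CPM in the CtrV libraries. Among the EKO-labelled libraries both of replicate 1 were the lowest in their pulsing state (log2 fold change -0.34). The libraries are called EKO-labelled here because their Siglece mRNA was not lower, and the protein was not part of these data. The study reports little or no Siglec-E on the clones that were pooled, and mRNA levels do not measure protein.

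Promoter sequences are shown for 3 of the genes that were lower in replicate 1, from the interferon and mitosis lists described below. Each run is the 250 bases before the transcription start site in RefSeq (GRCm38.p6), written in the direction of transcription. Capitals mark the interferon-stimulated response element (ISRE) core GAAANNGAAA or its reverse complement in Ifit3 and Cxcl10, and the cell cycle homology (CHR) motif TTTGAA in Cdc20. Ifit3 (chr19:34583279-34583528, plus strand) held the ISRE core 2 times, starting 156 and 122 bases before the start site. Cxcl10 (chr5:92348890-92349139, minus strand) held it 1 time, 213 bases before the start site. Cdc20 (chr4:118437344-118437593, minus strand) held the CHR motif 18 bases before the start site.
Ifit3: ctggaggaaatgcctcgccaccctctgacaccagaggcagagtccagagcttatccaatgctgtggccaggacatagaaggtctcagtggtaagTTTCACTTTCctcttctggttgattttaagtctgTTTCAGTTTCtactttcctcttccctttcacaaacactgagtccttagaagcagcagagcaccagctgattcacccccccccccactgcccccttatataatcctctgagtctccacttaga
Cxcl10: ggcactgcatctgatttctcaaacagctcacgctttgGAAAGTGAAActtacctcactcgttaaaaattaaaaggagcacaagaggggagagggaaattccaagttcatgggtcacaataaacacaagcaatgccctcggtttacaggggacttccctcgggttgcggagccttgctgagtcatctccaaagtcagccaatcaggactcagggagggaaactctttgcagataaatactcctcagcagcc
Cdc20: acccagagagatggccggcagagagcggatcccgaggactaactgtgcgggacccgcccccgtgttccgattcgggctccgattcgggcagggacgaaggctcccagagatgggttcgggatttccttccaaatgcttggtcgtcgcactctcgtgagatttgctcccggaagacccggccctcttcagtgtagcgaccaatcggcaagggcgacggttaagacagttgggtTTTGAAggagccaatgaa
Searched on both strands in windows that also took in the 50 bases after the start site, the ISRE core was found in 3.99% and the CHR motif in 20.2% of 27025 mouse genes with a window. Of the 55 mitosis genes, 44 had a window, and 32 of these (72.7%) held the CHR motif. A match of letters is not evidence of binding.

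In depth, the EKO-labelled libraries held 27792723 counts (replicate 1, unpulsed) to 39698572 counts (replicate 1, OVA-pulsed), so replicate 1 was both the shallowest and the deepest. A level of 3 counts stood for 0.0785 to 0.11 CPM over the 12 libraries. Mitochondrial mRNAs took 1.15% to 1.33% of EKO-labelled counts without a split by replicate. Ribosomal protein mRNAs took 1.34% and 1.36% in replicate 1 and 1.44% to 1.54% in replicates 2 and 3. The part of these shares in the results was not tested.

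Replicate 1 was the farthest from its fellow replicates in both pulsing states. Over 14079 genes, the standard deviation (SD) of the log2 CPM difference between 2 unpulsed EKO-labelled libraries was 0.359 for replicates 1 and 2, 0.395 for replicates 1 and 3 and 0.221 for replicates 2 and 3. Among the OVA-pulsed libraries it was 0.337, 0.286 and 0.240. Here replicate 3 lay nearer to replicate 1 than replicate 2 did, but it was nearest to replicate 2. At least 2-fold differences were seen in 349 and 424 genes between unpulsed replicate 1 and replicates 2 and 3, and in 66 genes between replicates 2 and 3. In CtrV the pairs ran from 0.209 to 0.320, with replicate 3 farthest from the others without OVA and replicate 1 farthest with OVA. No 2 libraries agreed within sampling noise (chi-square per degree of freedom of 4.86 to 45.3 over the 12 pairs). On the first principal component of the 6 EKO-labelled libraries (59.4% of the variance), replicate 1 scored -22.8 unpulsed and -24.4 OVA-pulsed. The others scored 14.6, 21.2, 9.37 and 2.02, of which 2.02 was OVA-pulsed replicate 3.

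**Figure D1:**
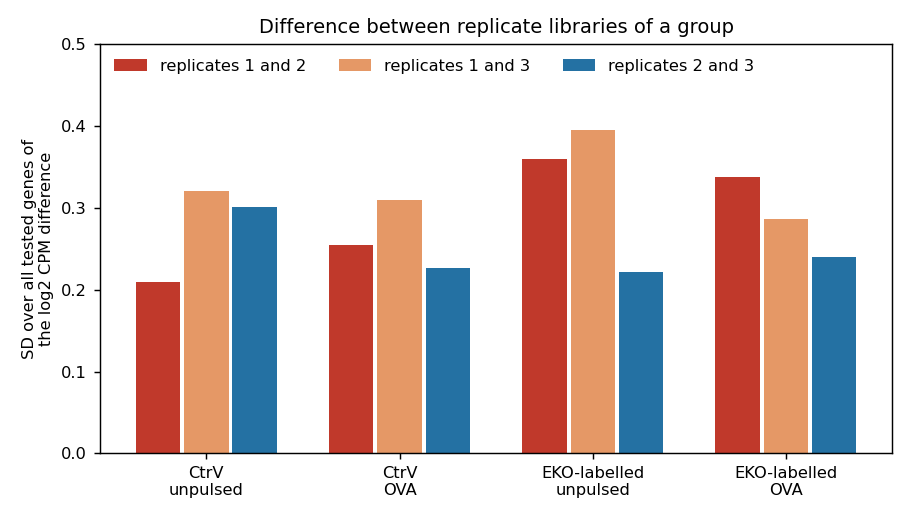
Difference between replicate libraries within each of the 4 groups. Bars give the SD over 14079 genes of the log2 CPM difference between 2 libraries, with an axis from 0. In both EKO-labelled groups the 2 bars that involve replicate 1 are taller than the bar of replicates 2 and 3 (0.359 and 0.395 against 0.221 unpulsed, 0.337 and 0.286 against 0.240 with OVA), and in CtrV this holds with OVA (0.255 and 0.310 against 0.227) and not without.

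A gene was counted as apart where its log2 fold change was at least 1 in size and replicate 1 lay above, or below, both other replicates within each pulsing state. By this rule 152 genes (1.08% of those tested) were higher in replicate 1 and 50 (0.355%) were lower. The expression filter (log2 CPM above 0 in at least 2 of the 12 libraries) could be met by the 2 replicate 1 libraries alone. Fabp5, for instance, had 1.58 and 1.07 CPM there and 0.55 CPM or less in every other library. How many of the 152 genes were tested only for this reason was not counted, so the 152 and the 50 are not on equal terms. Without a limit on size, replicate 1 was the highest in both pulsing states for 3791 genes (26.9%) and the lowest for 3606 (25.6%). The 152 higher genes had a median log2 fold change of 1.37 and the 50 lower genes one of -1.23, and 132 and 38 of them were protein coding. Many were low: 56 of the 152 and 18 of the 50 had a mean of at least 5 CPM. In 16 and 2 of them at least 10% of exon bases overlapped a gene on the opposite strand, and whether the counting used strand is not stated, so reads of such pairs cannot be told apart. Without OVA-pulsed replicate 1 the counts were 249 and 126, and without unpulsed replicate 1 they were 132 and 55.

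The difference of replicate 1 was alike in both pulsing states of the EKO-labelled cells. Across the 14079 genes, the difference in unpulsed libraries and that in OVA-pulsed libraries had a Pearson correlation of 0.706. In CtrV the same correlation was 0.0775. The split was chosen in the EKO-labelled libraries, so these correlations are not on equal terms. These are descriptions across genes, which are not independent, and what the libraries of a replicate number share is not stated. Mature migratory DC genes lay in the upper right of the plot of both differences, mitosis genes in the lower left with the larger difference after OVA, and interferon-stimulated genes in the lower left with the larger difference without OVA.

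**Figure D2:**
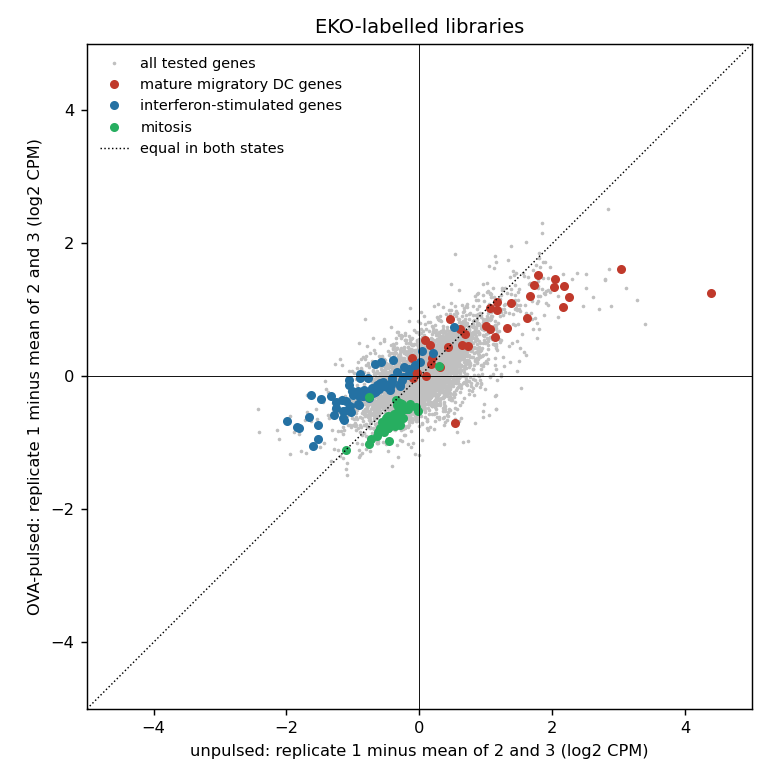
Replicate 1 minus the mean of replicates 2 and 3 in log2 CPM, for unpulsed (x axis) against OVA-pulsed (y axis) EKO-labelled libraries. Each point is 1 of 14079 tested genes, colored points are genes of 3 lists, and the dotted line marks equal differences. Mature migratory DC genes had medians of 1.01 unpulsed and 0.71 with OVA, interferon-stimulated genes -0.81 and -0.22, and mitosis genes -0.40 and -0.65.

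Mature migratory DC genes were, of the lists examined, the one with the largest share of genes apart and higher in replicate 1. Of 45 listed genes 37 passed the expression filter, and 16 of these 37 (43.2%, against 1.08% of all tested genes) were apart and higher, with none apart and lower. Replicate 1 was the highest in both pulsing states for 30 of the 37 (81.1%, against 26.9%). Their median log2 fold change was 0.83, against 0.00 over all tested genes. This list was put together after genes of this kind had been seen to vary among these libraries, so its count is not independent evidence of a direction. Fabp5, its member with the highest log2 fold change (2.34), passed the filter only through the 2 replicate 1 libraries (1.58 and 1.07 CPM). How many other members did so was not counted. In these bulk libraries more cells of a mature state and more mRNA per cell cannot be told apart.

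Fscn1, which encodes fascin (ENSMUSG00000029581, chromosome 5 from 142960343 to 142973185, plus strand), was at 1399, 427 and 387 CPM in unpulsed replicates 1, 2 and 3. With OVA it was at 1699, 404 and 862 CPM. Both replicate 1 libraries lay above all 4 others, with a log2 fold change of 1.61 and a residual SD of 0.46 (log2, over the 6 libraries after the fit). Ccl22, the chemokine gene named above (chromosome 8 from 94745590 to 94751699, plus strand), had 2980, 995 and 823 CPM unpulsed and 3575, 899 and 2103 CPM with OVA (log2 fold change 1.49). Cacnb3, a calcium channel beta subunit and a marker of migratory DCs (chromosome 15 from 98630840 to 98644529, plus strand), had 133, 31.8 and 27.2 CPM unpulsed and 149, 34.4 and 98.8 CPM with OVA (1.68). In these 3 genes the order was the same: replicate 1 highest in both states, and OVA-pulsed replicate 3 between replicate 1 and the rest.

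Ccr7, the lymph node homing receptor, had 404, 137 and 118 CPM unpulsed and 534, 132 and 402 CPM with OVA. Stat4, a signal transducer of the interleukin-12 receptor, had 48.3, 10.6 and 11.0 CPM unpulsed and 59.3, 20.8 and 39.6 CPM with OVA. Cd83, a maturation marker that stabilizes MHC class II at the surface, had 89.3, 43.6 and 36.0 CPM unpulsed and 106, 37.8 and 62.6 CPM with OVA. The enzyme gene Il4i1 (log2 fold change 1.24), the PD-L2 gene Pdcd1lg2 (1.18), Stat5a (1.04) and the chemokine gene Ccl17 (1.03) had the same order. Of the exon bases of Il4i1, 85.9% overlap a gene on the opposite strand, so its reads cannot be assigned to a strand here.

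The co-stimulatory genes Cd40, Cd80 and Cd86 are also in this list, and none was apart. Cd40 had 173, 172 and 141 CPM unpulsed and 214, 132 and 180 CPM with OVA (log2 fold change 0.31). Cd80 had a log2 fold change of 0.22 and Cd86 of 0.05, with Cd86 between 755 and 836 CPM in all 6 libraries and the groups overlapping. Cd274, the PD-L1 gene (0.65), with 14.1% of its exon bases overlapped from the opposite strand, was at 209, 148 and 125 CPM unpulsed and 253, 132 and 180 CPM with OVA.

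The 12 genes that were highest in replicate 1 among genes of moderate level (mean log2 CPM of at least 2) were Ankrd33b (2.06), Mmp25 (2.04), Sp6 (1.98), Anxa3 (1.72), Plek2 (1.70), Cacnb3 (1.68), Fscn1 (1.61), Nudt17 (1.60), Apol7c (1.60), Adora2a (1.56), Stat4 (1.55) and Apol7a (1.54). Mmp25, a membrane-anchored matrix protease, had 75.0, 11.9 and 9.76 CPM unpulsed and 93.8, 21.7 and 52.7 CPM with OVA. Adora2a, an adenosine receptor gene, had 38.1, 11.4 and 10.6 CPM unpulsed and 44.9, 11.4 and 24.0 CPM with OVA. Apol7c had 1109, 324 and 259 CPM unpulsed and 1068, 323 and 579 CPM with OVA, and it has close paralogs, Apol7a among them, with which reads may be shared. Of the exon bases of Sp6, 86.7% overlap a gene on the opposite strand, so its reads cannot be assigned to a strand here.

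OVA-pulsed replicate 3 took up an intermediate position in the genes that were higher. Placed on a scale from 0 at OVA-pulsed replicate 2 to 1 at OVA-pulsed replicate 1, it lay at a median of 0.47 over the 152 genes (quartiles 0.245 and 0.621), and nearer to replicate 1 than to replicate 2 for 71 of them. Over the 50 lower genes it lay at a median of -0.139, with 1 gene nearer to replicate 1. By the rule that picked these genes, OVA-pulsed replicate 3 could not reach or pass replicate 1. These positions therefore describe the picked genes only, and the position over all tested genes was not summarized. Without OVA-pulsed replicate 3 the counts of genes apart were 219 higher and 49 lower.

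Interferon-stimulated genes were lower in replicate 1. Of 84 listed genes 78 were tested, and 7 (8.97%, against 0.355% of all tested genes) were apart and lower, with none apart and higher. Replicate 1 was the lowest in both pulsing states for 57 of the 78 (73.1%, against 25.6%). The median log2 fold change was -0.49, made up of -0.81 without and -0.22 with OVA. This list, like the mitosis, integrated stress response and other lists, was chosen with earlier results of these data known. Its count is therefore not independent evidence of a direction.

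Ifit3, an antiviral effector of the IFIT family (chromosome 19 from 34583531 to 34588731, plus strand), was at 87.6, 310 and 305 CPM in unpulsed replicates 1, 2 and 3. With OVA it was at 137, 222 and 249 CPM. Both replicate 1 libraries were below all 4 others (log2 fold change -1.26), by more without than with OVA. Ifit3b, a near-identical neighbor whose promoter also held the ISRE core 2 times, gave the same log2 fold change of -1.26, and reads of the pair may be shared. Cxcl10, a chemokine that draws T cells (chromosome 5 from 92346638 to 92348889, minus strand), had 27.1, 83.0 and 73.3 CPM unpulsed and 33.1, 66.3 and 60.5 CPM with OVA (-1.22).

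Oas2, a sensor of double-stranded RNA, had 11.3, 33.9 and 35.0 CPM unpulsed and 12.5, 22.9 and 29.4 CPM with OVA (-1.32). Ifit2 (-1.11), Rsad2, the viperin gene (-1.09), and Cmpk2, a nucleotide kinase next to it (-1.24), made up the rest of the 7. Irf7, the factor that amplifies type I interferon, had 122, 322 and 294 CPM unpulsed and 204, 231 and 270 CPM with OVA (-0.78). Isg15 had 195, 426 and 385 CPM unpulsed and 304, 302 and 368 CPM with OVA, so its OVA-pulsed libraries overlapped.

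Not all interferon targets had this direction. Gbp5, a guanylate-binding protein, had 254, 191 and 165 CPM unpulsed and 307, 160 and 210 CPM with OVA, highest in replicate 1 (0.63). Cxcl9, at 2.19 to 3.16 CPM, was also highest there (0.28), and Mx1 overlapped (0.04). Tlr3, the receptor for double-stranded RNA, was apart and lower, at 28.4, 65.0 and 68.1 CPM unpulsed and 30.8, 55.6 and 53.7 CPM with OVA (-1.02). In the list of interferon genes, receptors and factors the median was -0.02, with 2 of 21 genes (9.52%, against 0.355%) apart and lower, Tlr3 and Ifnb1. Ifnb1, the interferon beta gene, had 0.843, 6.77 and 3.46 CPM unpulsed and 2.28, 3.60 and 2.89 CPM with OVA (-1.30).

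Mitosis genes were lower in replicate 1, mostly by less than 2-fold. Replicate 1 was the lowest in both pulsing states for 53 of 55 genes (96.4%, against 25.6%), with a median log2 fold change of -0.53 and a range of -1.12 to 0.22. Of the 55 genes 1 was apart (1.82%, against 0.355%), Cdc25b, the phosphatase that activates the mitotic kinase (-1.12). Cdc20, the activator of the anaphase-promoting complex (chromosome 4 from 118432901 to 118437352, minus strand), had 40.7, 60.8 and 78.5 CPM unpulsed and 31.5, 61.4 and 66.3 CPM with OVA (-0.90). Plk1, a mitotic kinase, had 61.8, 84.4 and 99.2 CPM unpulsed and 51.8, 84.2 and 82.9 CPM with OVA (-0.63). Both replicate 1 libraries lay below the other 4 in Cdc20 and Plk1. Mki67 was lower by less (-0.25), and Mybl2 was the 1 mitosis gene with replicate 1 highest (0.22).

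DNA replication genes differed less. Their median log2 fold change was -0.06 over 45 genes, with 13 lowest (28.9%, against 25.6% of all tested genes) and 0 highest (against 26.9%) in replicate 1. In CtrV 36 of the 45 (80%, against 15.9%) were lowest in replicate 1. Mcm10, a replication initiation factor, was at 48.4, 69.4 and 68.9 CPM unpulsed and 44.4, 63.9 and 61.9 CPM with OVA (-0.51). Of 5 tested replication-dependent histone genes, 4 were lowest in replicate 1 (80%, against 25.6%), with a median of -0.67. The cytosolic ribosomal protein genes were lowest in replicate 1 for 60 of 74 (81.1%, against 25.6%), by a median of -0.13.

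Integrated stress response genes, which the transcription factor ATF4 induces when amino acids run short or translation is curbed, were lower in replicate 1. Replicate 1 was the lowest for 21 of 30 gene records (70%, against 25.6%; 2 records carry the symbol Ddit3), with a median of -0.41. Atf4 had 200, 332 and 312 CPM unpulsed and 209, 284 and 276 CPM with OVA (-0.55). Asns, asparagine synthetase, had 119, 234 and 227 CPM unpulsed and 142, 197 and 202 CPM with OVA (-0.71). Trib3, a pseudokinase induced by ATF4, had 15.1, 35.7 and 36.4 CPM unpulsed and 20.8, 29.3 and 33.0 CPM with OVA (-0.89). Phgdh, the first enzyme of serine synthesis, had a log2 fold change of -0.97. The 1 gene apart (3.33% of the list, against 0.355% of all tested genes), Cth (-1.39), was at 0.623 to 2.57 CPM. Ddit4 went the other way (0.81), at 2.06 to 4.89 CPM.

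**Figure D3:**
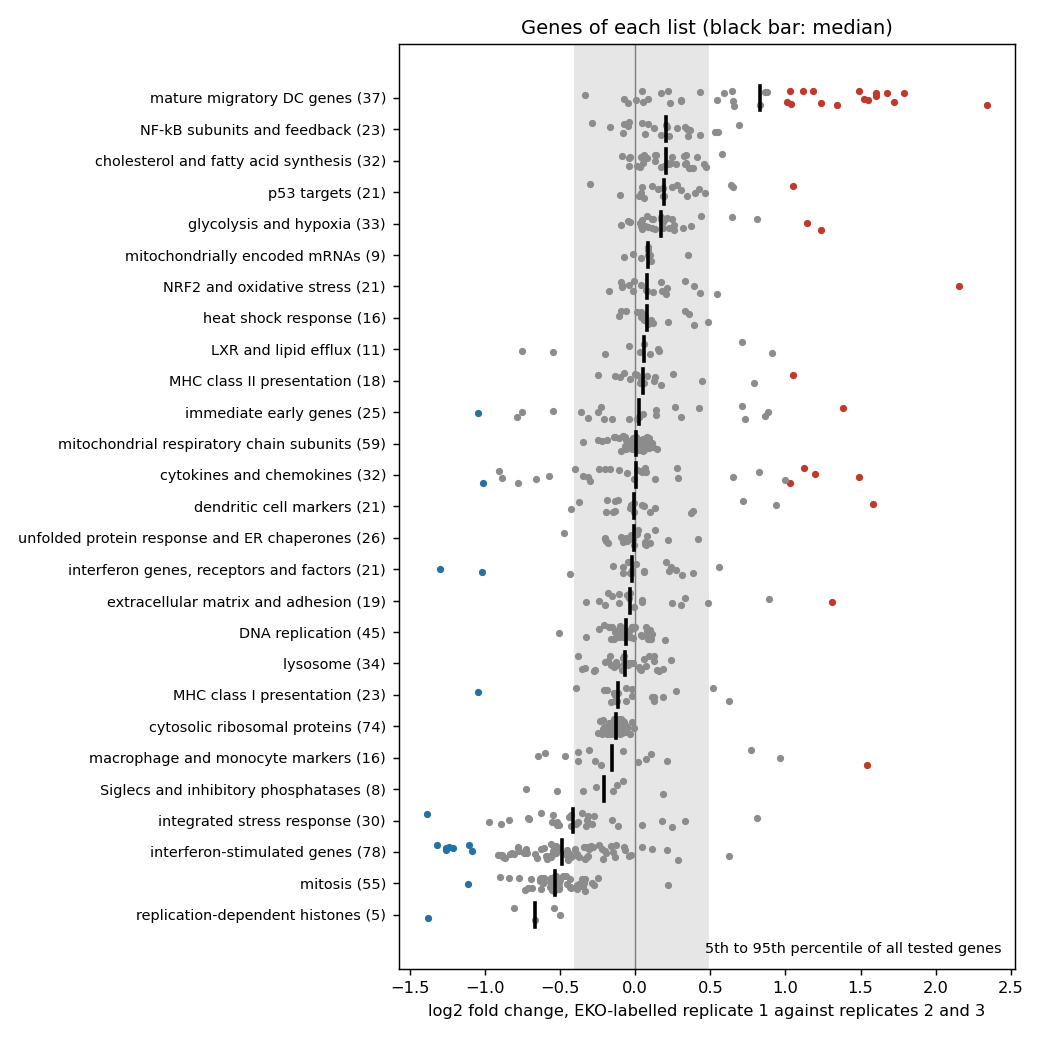
Log2 fold change of EKO-labelled replicate 1 against replicates 2 and 3 for each tested gene of 27 lists with at least 5 tested genes (number tested in brackets). Black bars are list medians, red and blue points are genes apart and higher or lower, and the grey band spans the 5th to 95th percentile of all tested genes (-0.40 to 0.48). Mature migratory DC genes have the highest median (0.83), and mitosis (-0.53), interferon-stimulated (-0.49) and integrated stress response genes (-0.41) lie at the lower end with the 5 histone genes (-0.67).

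Cytokine and chemokine genes went in both directions, with a median of 0.00 over 32 tested genes. Apart and higher were 4 genes (12.5%, against 1.08% of all tested genes), Ccl22, Ccl17, Cxcl1 and Il6, and apart and lower was 1 (3.12%, against 0.355%), Ccl3. Cxcl1 had 1.39, 0.627 and 0.489 CPM unpulsed and 2.62, 0.547 and 1.81 CPM with OVA. In CtrV it had 0.351 CPM or less, so it passed the expression filter only with replicate 1 counted in. Il6 had 17.9, 9.54 and 5.69 CPM unpulsed and 20.3, 11.1 and 8.95 CPM with OVA. Ccl3, an inflammatory chemokine, had 280, 658 and 591 CPM unpulsed and 288, 569 and 485 CPM with OVA (-1.01). Its neighbor Ccl4 had 299, 661 and 572 CPM unpulsed and 307, 553 and 469 CPM with OVA (-0.89). Ccl5 had 867, 547 and 430 CPM unpulsed and 1160, 384 and 652 CPM with OVA (1.00), so chemokines of 1 family lay on opposite sides. Il1b was at 1992 to 2546 CPM (-0.01), Il12b at 358 to 660 CPM (0.28) and Tnf at 187 to 352 CPM (-0.24), each with overlapping groups.

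Nuclear factor kappa B subunits and feedback genes had a median of 0.21, with 13 of 23 highest (56.5%, against 26.9% of all tested genes) and 3 lowest (13%, against 25.6%) in replicate 1 and none apart. Relb had 89.7, 66.2 and 66.8 CPM unpulsed and 102, 65.2 and 85.9 CPM with OVA (0.43). Genes of cholesterol and fatty acid synthesis were highest in replicate 1 for 21 of 32 (65.6%, against 26.9%) and lowest for 2 (6.25%, against 25.6%), with a median of 0.20. Fasn, fatty acid synthase, had 658, 428 and 431 CPM unpulsed and 643, 434 and 446 CPM with OVA (0.58), with a residual SD of 0.03. Of glycolysis and hypoxia genes, 19 of 33 were highest in replicate 1 (57.6%, against 26.9%), with a median of 0.17. Pfkfb3, a glycolytic regulator, and Ndrg1 were apart and higher (1.14 and 1.24), which is 6.06% of the list against 1.08%. MHC class II presentation had a median of 0.05, with H2-Eb2 apart and higher (1.05), 1 of 18 genes tested (5.56%, against 1.08%). Of these 18 genes, 7 were highest (38.9%, against 26.9%) and 3 lowest (16.7%, against 25.6%) in replicate 1.

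The 12 genes of moderate level that were lowest in replicate 1 included 7 interferon-stimulated genes and Cdc25b. The others were BC147527 (-1.46), Itga9, an integrin alpha subunit (-1.28), Ighd (-1.23) and Serpina3g, a serine protease inhibitor (-1.16). Itga9 (chromosome 9 from 118606690 to 118901003, plus strand) had 4.69, 13.2 and 13.5 CPM unpulsed and 5.68, 10.3 and 13.9 CPM with OVA. Lpl, lipoprotein lipase, had 1177, 2210 and 2186 CPM unpulsed and 1155, 1902 and 1640 CPM with OVA (-0.76). Egr1, an immediate early gene, was at 16.8, 28.7 and 36.4 CPM unpulsed and 15.8, 20.5 and 48.6 CPM with OVA (-1.05), and it was highest in replicate 3 in CtrV too, at 96.3 and 69.0 CPM against 29.9 to 39.8.

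DC markers were present in all libraries, with a median of -0.01 over the 21 of 24 listed genes that were tested. Replicate 1 was the highest in both pulsing states for 8 of the 21 (38.1%, against 26.9%) and the lowest for 5 (23.8%, against 25.6%). Their summed level was 30120 to 31450 CPM in replicate 1 and 30880 to 32440 CPM in replicates 2 and 3. Much of this sum came from Cd74 alone, at 13960 to 16480 CPM, so it says little about the markers of lower level. Itgax, the CD11c gene, was at 823 to 879 CPM in all 6 libraries. Flt3, the receptor of a DC growth factor, was apart and higher, with 7.85, 1.82 and 1.80 CPM unpulsed and 7.35, 2.25 and 4.40 CPM with OVA (1.58). Irf4 (0.72) and Batf3 (0.94), transcription factors of conventional DCs, were highest in replicate 1 without overlap. The lectin gene Mgl2 was lowest there, at 338, 437 and 422 CPM unpulsed and 309, 428 and 386 CPM with OVA (-0.37), as was Cd74, the MHC class II invariant chain gene (-0.14). Macrophage and monocyte markers were also present, with a summed level of 3448 to 3608 CPM in replicate 1 and 3910 to 4066 CPM in the others. Of 16 tested genes in that list, 9 were lowest in replicate 1 (56.2%, against 25.6%), among them Fcgr1 (-0.65), Cd14 (-0.60) and the complement genes C1qa, C1qb and C1qc, while Maf (1.55), Mertk (0.97) and Marco (0.77) were highest. These 3 were low, with Mertk at 1.49 to 4.07 CPM and Marco at 0.922 to 1.96 CPM. Maf had 1.87 and 2.38 CPM in replicate 1, 0.429 to 0.984 CPM in the other EKO-labelled libraries and 0.430 CPM or less in CtrV. It passed the expression filter only with replicate 1 counted in. C1qa, for instance, had 546, 661 and 691 CPM unpulsed and 572, 647 and 621 CPM with OVA. Mrc1 was at 0 in all 12 libraries.

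Neutrophil and mast cell markers were near or below the floor, while a few markers of other cell types were measured. None of 17 neutrophil and mast cell markers passed the filter, their highest level in any library was 0.412 CPM, and Ly6g and S100a8 were at 0. Of 19 lymphocyte and NK cell markers 1 passed, Ighm, and Cd3e was at 0. Ighm had 140, 290 and 328 CPM in unpulsed and 135, 202 and 225 CPM in OVA-pulsed EKO-labelled replicates 1, 2 and 3, and 112 to 159 CPM in CtrV. Stromal, epithelial and erythroid markers summed to 491 to 534 CPM in replicate 1 and 498 to 544 CPM in the others, with 4 of 20 tested. Among them the adhesion gene Pecam1 had 283, 346 and 334 CPM in unpulsed and 336, 316 and 329 CPM in OVA-pulsed EKO-labelled replicates 1, 2 and 3, and Cdh1, the E-cadherin gene, was at 152 to 183 CPM, with overlapping groups. The part of these markers in the results was not tested.

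**Figure D4:**
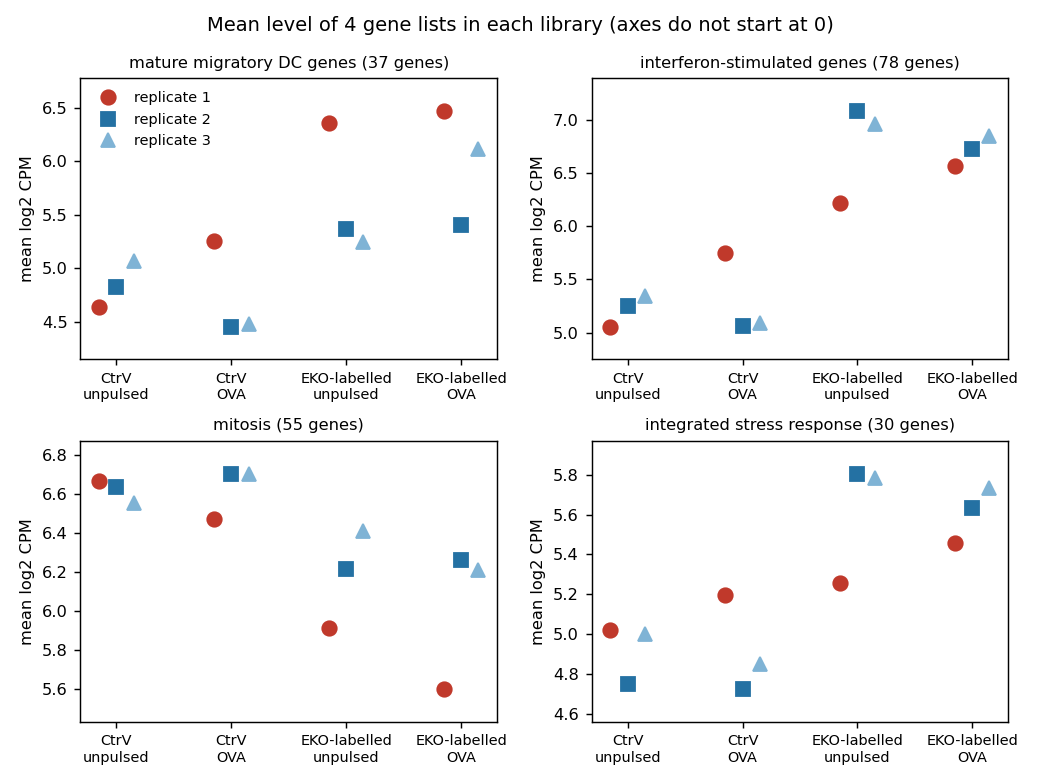
Mean log2 CPM of 4 gene lists in each of the 12 libraries, by group (x axis) and replicate (color and shape); the axes do not start at 0. In the EKO-labelled groups replicate 1 is highest for mature migratory DC genes (6.36 and 6.47) and lowest for the other 3 lists, and OVA-pulsed replicate 3 (6.12) lies between replicates 1 and 2 (5.41) for mature migratory DC genes.

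In the CtrV libraries the same replicate numbers were compared with edgeR's quasi-likelihood test. The fit took 1 difference for both pulsing states and treated libraries of the same replicate number as independent. Whether those libraries came from separate cultures is not stated. A difference that changed sides with pulsing could be missed, so the lack of calls does not show that there was no difference. No gene of 14079 (0%) was called in either direction at an adjusted p under 0.05, and the smallest adjusted p was 0.718. At an unadjusted p under 0.05 there were 902 genes. Without a limit on size, replicate 1 was the highest CtrV library in both pulsing states for 1971 genes (14%) and the lowest for 2232 (15.9%). DESeq2 called 6 genes, all higher in replicate 1, and limma voom called 0. By the rule of fold and overlap used for the EKO-labelled libraries, 11 genes (0.0781%) were higher and 9 (0.0639%) were lower in CtrV replicate 1. A log2 fold change of at least 1 in size was reached by 29 genes in CtrV and by 208 in the EKO-labelled libraries. The split was chosen because replicate 1 stood apart in the EKO-labelled libraries. The numbers of the lines are therefore not on equal terms, and the difference between them was itself not tested.

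For some lists, the side of CtrV replicate 1 differed between the pulsing states. For others it did not, as for cholesterol and fatty acid synthesis (medians of 0.30 unpulsed and 0.19 with OVA). Each state had a single replicate 1 library, so pulsing and variation between libraries cannot be told apart. Mature migratory DC genes had a mean log2 CPM of 4.64, 4.83 and 5.07 in unpulsed CtrV replicates 1, 2 and 3, where replicate 1 was the lowest. With OVA they had 5.26, 4.46 and 4.48, where replicate 1 was the highest. EKO-labelled replicate 1 had 6.36 and 6.47, above every CtrV library, and replicates 2 and 3 had 5.25 to 6.12. The median difference of replicate 1 from the others was -0.25 unpulsed and 0.79 with OVA in CtrV, against 1.01 and 0.71 in the EKO-labelled libraries. For OVA-pulsed cells, therefore, replicate 1 was higher in both lines. Across all 14079 genes, the difference of replicate 1 in OVA-pulsed EKO-labelled libraries and that in OVA-pulsed CtrV libraries had a Pearson correlation of 0.448, against 0.0602 for unpulsed libraries.

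The interferon-stimulated genes had replicate 1 lowest in both lines without OVA, and on opposite sides with OVA. In CtrV they had a mean log2 CPM of 5.06, 5.25 and 5.34 unpulsed and 5.75, 5.06 and 5.09 with OVA. OVA-pulsed replicate 1 was thus the highest CtrV library and the lowest OVA-pulsed EKO-labelled library (6.57, against 6.72 and 6.85). Ifit3 had 44.7, 18.6 and 24.6 CPM in OVA-pulsed CtrV replicates 1, 2 and 3. Mature migratory DC genes and interferon-stimulated genes were both highest in OVA-pulsed CtrV replicate 1. In the EKO-labelled libraries the first list was highest and the second lowest in replicate 1.

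Mitosis genes had a mean log2 CPM of 6.48 to 6.71 in CtrV and of 5.60 to 6.41 in the EKO-labelled libraries, with 5.92 and 5.60 in replicate 1. OVA-pulsed CtrV replicate 1 was the lowest of its group (6.48, against 6.71 and 6.70), and unpulsed CtrV replicate 1 was not. Integrated stress response genes were lowest in replicate 1 among EKO-labelled libraries (5.25 and 5.46, against 5.63 to 5.81) and highest in replicate 1 in CtrV (5.02 and 5.19, against 4.72 to 5.00). Cholesterol and fatty acid synthesis genes were higher in replicate 1 of both lines, with medians of 0.20 and 0.23.

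The difference between the lines is given here by replicate number. The median log2 difference of EKO-labelled from CtrV libraries over the mature migratory DC genes was 1.43 between the replicate 1 libraries and 0.74 between replicates 2 and 3. For interferon-stimulated genes it was 0.90 in replicate 1 and 1.59 in replicates 2 and 3, and for integrated stress response genes 0.10 and 0.67. For mitosis genes it was -0.82 and -0.39. The direction was the same for all 4 lists, and whether the sizes differ was not tested.

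**Figure D5:**
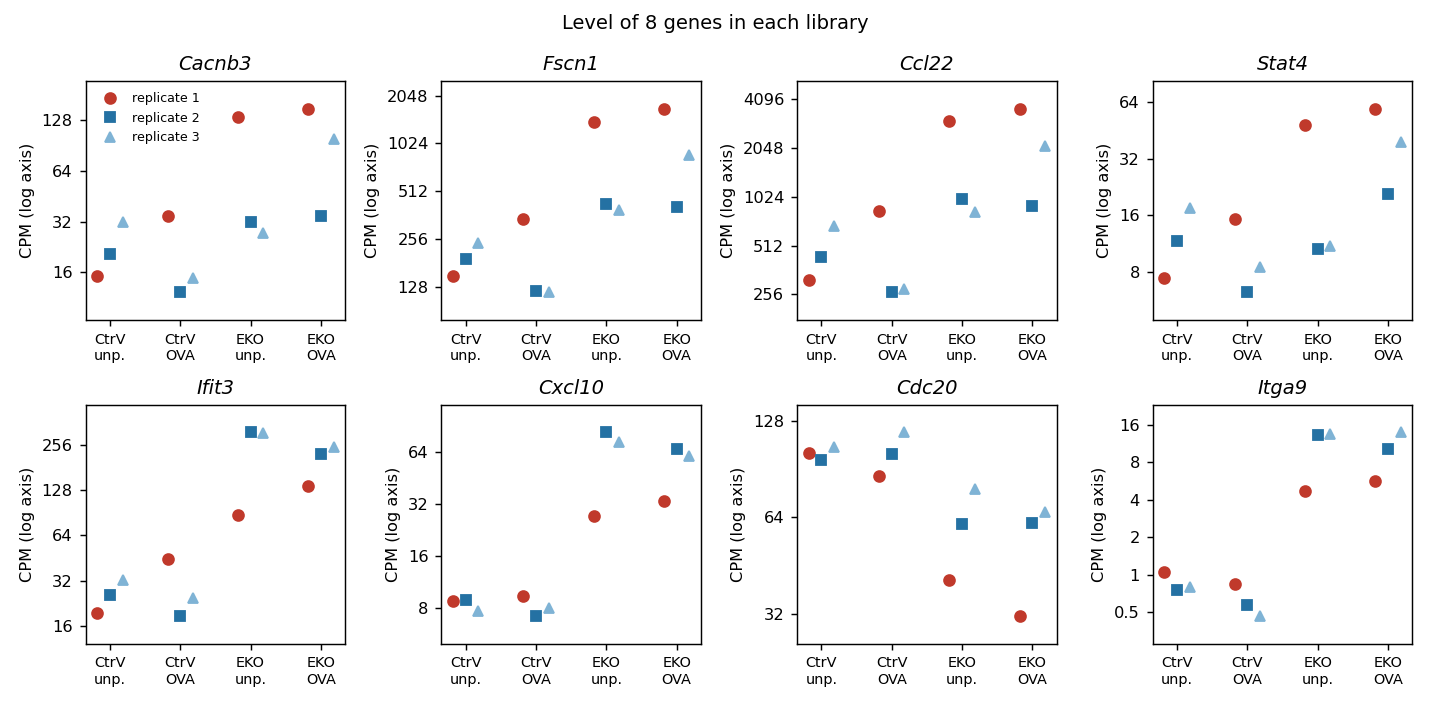
Level of 8 genes in each of the 12 libraries (CPM, log axis), by group and replicate; EKO means EKO-labelled and unp. unpulsed. Replicate 1 is the highest EKO-labelled library in both pulsing states for Cacnb3, Fscn1, Ccl22 and Stat4 and the lowest for Ifit3, Cxcl10, Cdc20 and Itga9, while in unpulsed CtrV it is the lowest for the first 4 genes and for Ifit3.

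Medians differed little by chromosome and by gene length. The median log2 fold change over the genes of a chromosome lay between -0.03 (chromosome X, 515 genes) and 0.02 (chromosome 16, 455 genes). The median log2 fold change in the EKO-labelled libraries ran from -0.06 in the genes with the shortest exon length (first quartile) to 0.05 in those with the longest (last quartile), and in CtrV from -0.05 to 0.05.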

How the data were processed

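The authors deposited 1 table of raw counts of reads per gene for all 12 libraries. By the methods and the submitters' processing notes, reads were aligned to mm10 with STAR and counted on exon unions with featureCounts and an Ensembl annotation. Whether counting used strand is not given in the sources used here. Total counts were 27116201 to 39698572 per library. Groups and replicate numbers came from the labels. Of 55401 genes, 14079 passed the filter of the study's methods (log2 CPM above 0 in at least 2 of the 12 libraries). Names and positions came from GENCODE (GRCm38), which named 14056 of these. 0 columns were left unused.

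Counts were scaled with TMM factors and fitted with edgeR 4.0.16 in R 4.3.3, with replicate 1 and pulsing as terms, within each line. The CtrV fit was tested with the quasi-likelihood test and Benjamini-Hochberg adjustment (adjusted p under 0.05). P-values measure the spread between these samples, which may be technical. Scripts were tested on simulated counts. CPM of single genes were computed from TMM-scaled totals, and log2 CPM with a prior count of 2. Intervals were not computed; the floor of 3 counts covers counting error only.

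The replicate split, the 31 gene lists and the genes named were chosen with earlier results of these data known. The naming rule took Siglece, the 12 genes highest and the 12 lowest in replicate 1 with no overlap and a mean log2 CPM of 2 or more, and 2 genes per list of at least 5 tested genes under the same limits. Other list members (such as Ccr7, Cd83, Cd40, Ccl3, Ccl5, Atf4, Irf7 and Plk1) were named after their values were seen. Alternatives were other normalizations and filters, DESeq2 1.42.0, limma voom (limma 3.58.1), no pulsing term, each pulsing state alone, other fold and p limits, single replicates, 1 fit of all libraries and leaving out each library. Bias-adjusted deviances of newer edgeR versions were added after the values had been seen.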

Additional observations from a re-analysis of the deposited data

Results flagged for a closer look

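For 4 named genes and 1 list, replicate 1 lay on one side of both other replicates in both pulsing states of the EKO-labelled libraries and on the opposite side in both states of CtrV. The values below are the difference of replicate 1 in the EKO-labelled libraries minus that in CtrV, in log2 units, and none was tested as a difference between the lines. Ifi30, a thiol reductase of antigen processing, had 0.92, with 18.1 to 36.8 CPM in the EKO-labelled libraries and 40.5 to 46.2 CPM in CtrV. Lpl had -1.02, and its CtrV levels were 1233, 1148 and 1045 CPM unpulsed and 1476, 1202 and 1107 CPM with OVA. Cmpk2 had -1.82, and its CtrV levels were 2.54, 2.47 and 2.51 CPM unpulsed and 4.62, 2.18 and 2.45 CPM with OVA. The unpulsed levels stood for 72, 69 and 73 counts, so their order was within counting error. Itga9 had -1.84, with CtrV levels of 0.464 to 1.06 CPM, which stood for only 14 to 31 counts. The mean level of the integrated stress response list had -0.66 (log2 CPM). In unpulsed CtrV its mean was 5.02 in replicate 1 and 5.00 in replicate 3, which is close to equal.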

How the results depend on the processing

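The counts of genes apart in the EKO-labelled libraries (152 higher, 50 lower) depended on what was left in the table and on the limit. They were 965 and 434 without the expression filter, 249 and 126 with unpulsed and 132 and 55 with OVA-pulsed libraries alone, 7 and 0 at a log2 limit of 2 and 615 and 453 at a limit of 0.5. Leaving out each library gave 132 to 249 higher and 45 to 126 lower. List medians for unpulsed and OVA-pulsed libraries alone were -0.81 and -0.22 for interferon-stimulated genes, -0.40 and -0.66 for mitosis and -0.55 and -0.28 for the integrated stress response, and leaving out each library gave the same ranges. For mature migratory DC genes that range was 0.69 to 1.01. The median of LXR and lipid efflux genes, 0.06, was -0.014 in unpulsed libraries alone and without OVA-pulsed replicate 1 (-0.014 to 0.091 leaving out each library). In CtrV, 0 genes were called, against 31 without the filter, 6 with DESeq2, 498 for replicate 1 against replicate 3 alone and 20 by the rule of fold and overlap; leaving out each library gave 0 to 1, the 1 without unpulsed replicate 2. The cause of these changes was not tested. For these counts and lists, 104 other values kept their side and were near the first value; for named genes and other lists 1549 did so, 159 moved and 2 reversed. Tests in CtrV within 1 pulsing state were not run, since 1 library then stands against 2. No paired analysis was possible because the replicate number is the contrast itself. Genes near 3 counts (0.0785 to 0.11 CPM) could not be compared at this depth.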
